A study of Arabidopsis thaliana with 8 samples.

Results

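The genes described here were 5 nuclear genes of chromatin assembly, followed through prolonged heat stress in Arabidopsis thaliana: the core histone H2B genes HTB1 (AT1G07790), HTB3 (AT2G28720) and HTB11 (AT3G46030), and the histone chaperone genes ASF1A (AT1G66740) and ASF1B (AT5G38110). They are named by locus and were chosen with earlier results of these data known. Each has 1 probe set assigned to 1 gene. Together they are 5 of 13513 such probe sets and of 22746 probe sets tested in all. The gene annotation used here lists HTB3 by its locus only and ASF1A under its other name, SGA2. The 8 Affymetrix arrays came from seedlings raised in vitro for 3 weeks at 22 °C in long days, in 4 groups of 2 biological replicates. The heat groups were exposed to 37 °C for 30 h, starting early in the light phase, and were sampled at once (heat, no recovery) or once 2 days at 22 °C had followed (heat, recovery). The mock groups stayed at 22 °C and were sampled at the same 2 times. No genotype or ecotype is given in the labels used here.

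H2B pairs with H2A, and H2A-H2B dimers close the nucleosome around the H3-H4 core, so that new chromatin needs a supply of all 4 core histones. Plants carry many H2B genes, and their expression is known to rise in dividing cells, where replicated DNA is packed again. ASF1 binds H3-H4 dimers and hands them to the assembly factors CAF-1 and HIRA. In Arabidopsis the pair ASF1A and ASF1B is known to act redundantly in growth and to take part in the response to heat.

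All values are signals on the log2 scale, so that a change of 1 is a doubling, and no level of one probe set is set against that of another. Across arrays the median signal ran from 5.04 to 5.11, and 30.8% to 31.8% of values lay below 2.3, read as the floor of the signal. Replicate arrays correlated at 0.995 to 0.996 across probe sets. None of the values of the 5 chosen genes came near the floor.

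Directly after the stress, HTB3 and HTB11 fell most and HTB1 fell less, while neither ASF1 gene passed the test. HTB3 read 6.14 and 5.87 on the heat arrays, against 9.92 and 9.72 on the mock arrays. Both heat arrays lay far below both mock arrays. The change was -3.82 ± 0.13 (SE, n = 2 arrays per group), or 14.1-fold lower, with a 95% interval of -4.18 to -3.46 on the log2 scale (limma adjusted p = 0.000145). Of all probe sets tested, 0.936% fell at least as far, 213 in number. In RNA of seedlings, fewer cells of a type (dividing cells, for example) and less RNA per cell cannot be told apart.

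HTB11 read 7.03 and 7.11 in heat, against 9.45 and 9.35 in mock. Again the groups did not overlap, and replicates lay close together. The change was -2.33 ± 0.08, or 5.03-fold lower, with a 95% interval of 4.37-fold to 5.79-fold (limma adjusted p = 0.000125), and 3.83% of probe sets fell at least as far.

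HTB1 read 7.55 and 7.45 in heat, against 8.23 and 8.18 in mock. The heat arrays were both lower, by a distance several times the gap between replicates. The change was -0.71 ± 0.11, or 1.63-fold lower, with a 95% interval of 1.33-fold to 2.003-fold (limma adjusted p = 0.00817). A fall of this size was common, since 17.5% of probe sets fell at least as far.

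**Figure D1:**
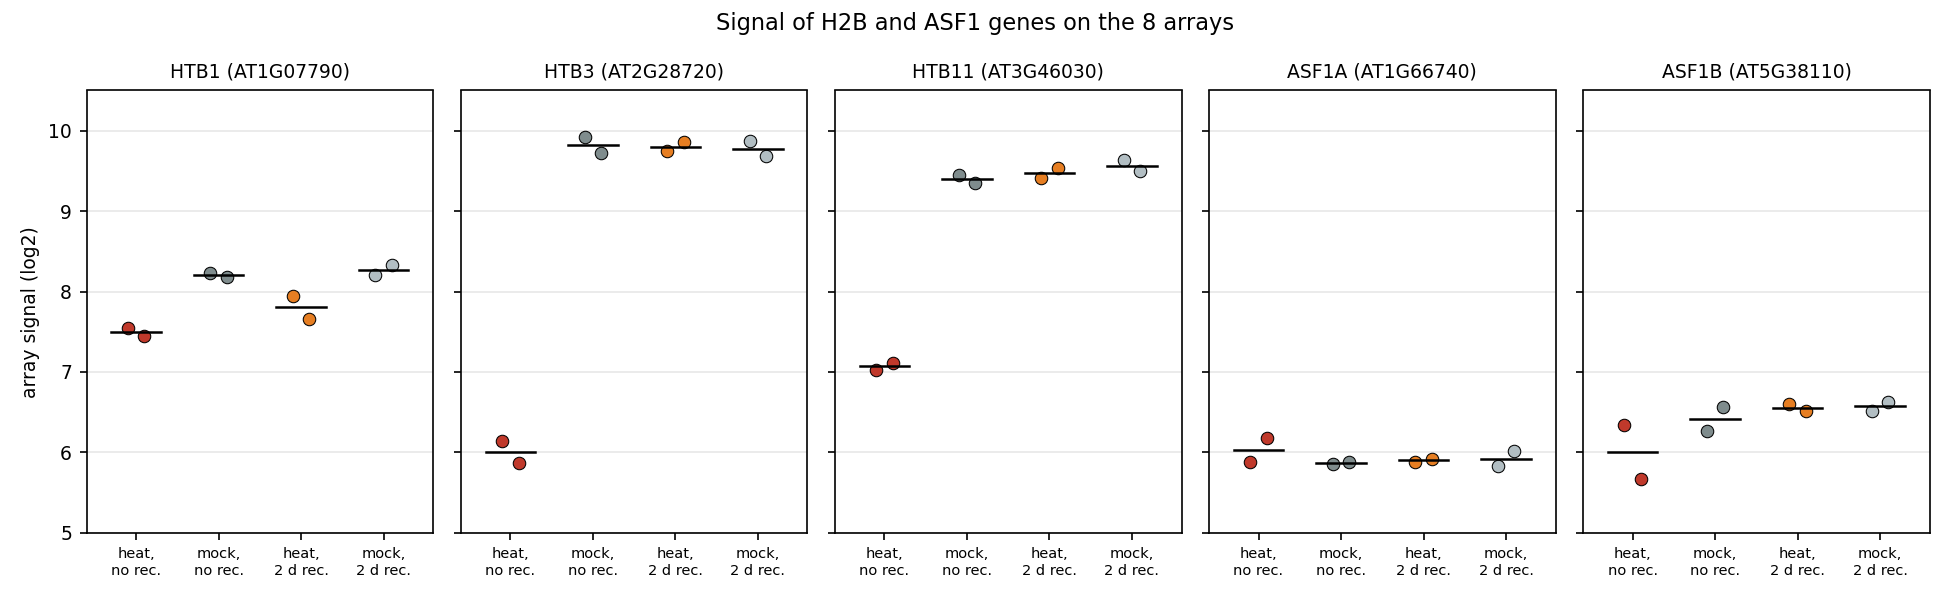
Signal (log2) of the 5 genes on each of the 8 arrays, with points for single arrays and bars for the mean of 2. HTB3 and HTB11 dropped in heat without recovery and overlapped with mock after recovery, HTB1 dropped less (means of 7.499 in heat and 8.21 in mock), and ASF1A and ASF1B overlapped between heat and mock at both times; levels of different genes are not comparable.

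ASF1A read 5.88 and 6.17 in heat, against 5.86 and 5.88 in mock, and the groups overlapped. One heat array equalled 1 mock array to the last digit, and in all 3 of the 8 arrays shared this value. Such repeats were found for 7.01% of the 14810 probe sets off the floor on every array, which limits how finely the spread of ASF1A can be read. The change of ASF1A was 0.16 ± 0.12, with a 95% interval of -0.16 to 0.47 (limma adjusted p = 0.391). It was 0.304 without heat no-recovery replicate 1 and 0.0141 without replicate 2 (limma adjusted p = 0.0902 and 1.00).

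ASF1B read 6.34 and 5.66 in heat, against 6.27 and 6.56 in mock. One heat array stood within the mock range and the other below it. The change was -0.41 ± 0.25, with a 95% interval of -1.09 to 0.26 (limma adjusted p = 0.309). This result rested on single arrays: without heat no-recovery replicate 1 the change was -0.75 and passed the test (limma adjusted p = 0.0366), and without replicate 2 it was -0.07 (limma adjusted p = 0.952). The intervals leave room for changes of either ASF1 gene up to their bounds, so equal levels in heat and mock were not shown.

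In total 3 of the 5 genes were called lower and 0 higher, where 19.8% of all probe sets were called lower, 21.2% higher and 41.0% in either direction. The same 3 had both heat arrays below both mock arrays, as did 29.5% of all probe sets. All 5 genes reached log2 4 on at least 2 arrays. With only such probe sets tested, 9749 of 13849 were called in either direction. Shares over all probe sets, here and below, include those at the floor. They are thus a low background for genes well above it. The median change of the 5 genes was -0.71, against 0.00 over all probe sets tested. Since the 5 were chosen with earlier results of these data known, these counts and the median only describe them.

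**Figure D2:**
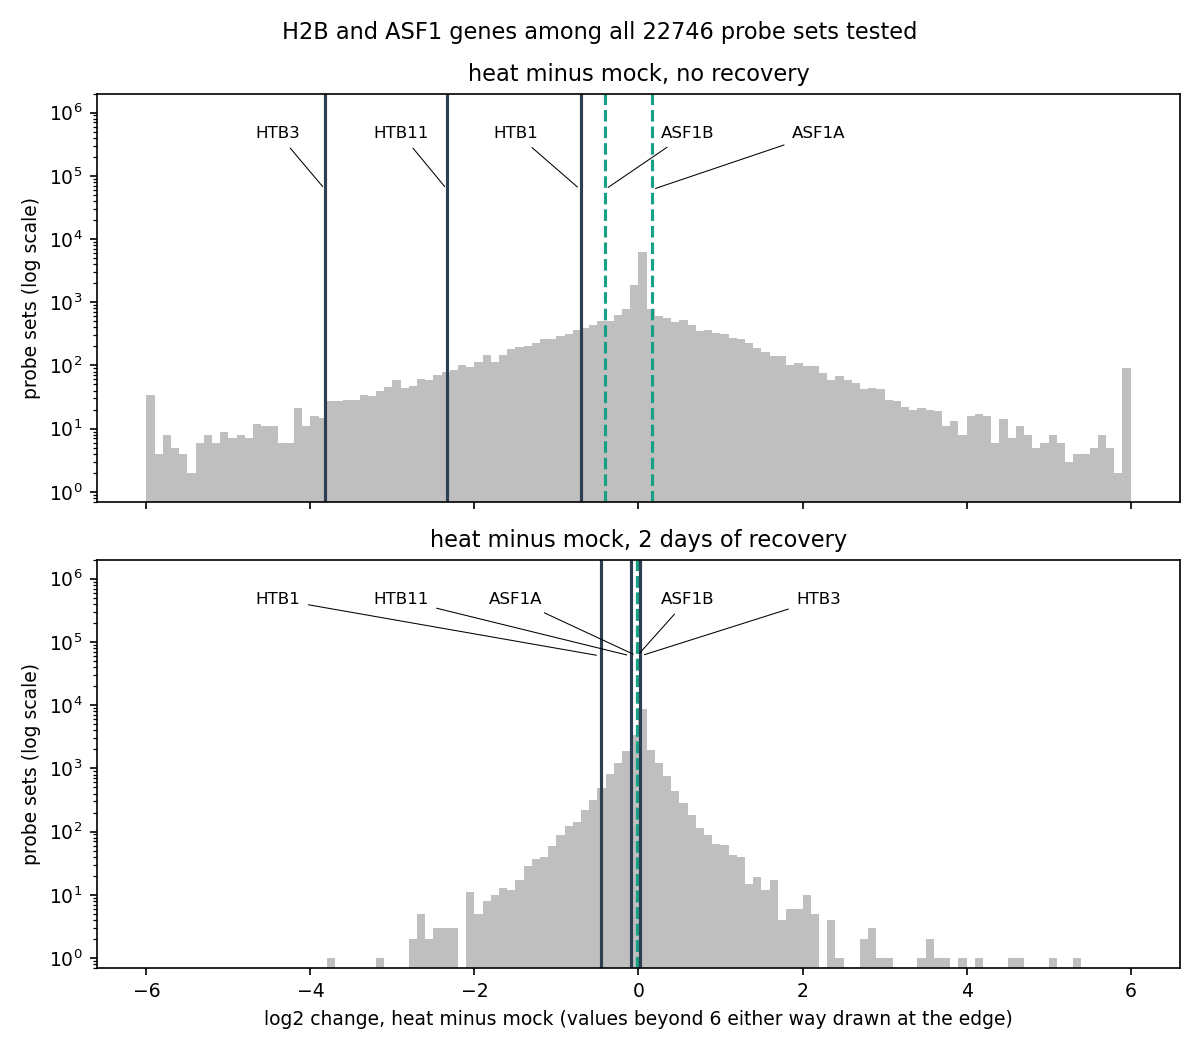
Distribution of the log2 change between heat and mock over all probe sets tested (log count axis), without recovery above and after 2 days of recovery below, with solid lines for H2B and dashed lines for ASF1 genes. HTB3 lies in the far lower tail without recovery (-3.82). After recovery HTB1 lies to the lower side (-0.46, with 5.76% of probe sets at least as far down) and the other 4 lie between -0.09 and 0.02.

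The measured falls of the 3 H2B genes differed in size. The difference of the HTB3 and HTB1 signals within an array was -1.41 and -1.58 in heat without recovery, against 1.69 and 1.54 in mock, a shift of -3.11. For HTB3 and HTB11 the shift was -1.49, with differences of -0.89 and -1.25 in heat and 0.47 and 0.37 in mock. For HTB11 and HTB1 it was -1.63. In each of these 3 pairs the heat and mock arrays did not overlap. An exact two-sided permutation test of 2 arrays against 2 cannot go below p = 0.333, which was the value for each H2B pair at both times (adjusted p = 0.444 over 8 comparisons). The 95% intervals of the 3 changes against mock did not meet: -4.18 to -3.46 for HTB3, -2.53 to -2.13 for HTB11 and -1.002 to -0.41 for HTB1. After recovery the shifts of the 3 pairs were 0.49 for HTB3 and HTB1, 0.37 for HTB11 and HTB1 and 0.12 for HTB3 and HTB11, again without overlap. The difference between ASF1B and ASF1A overlapped between heat and mock without recovery (exact permutation p = 0.667, adjusted p = 0.762 over the same 8) and after it (exact permutation p = 1.00).

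**Figure D3:**
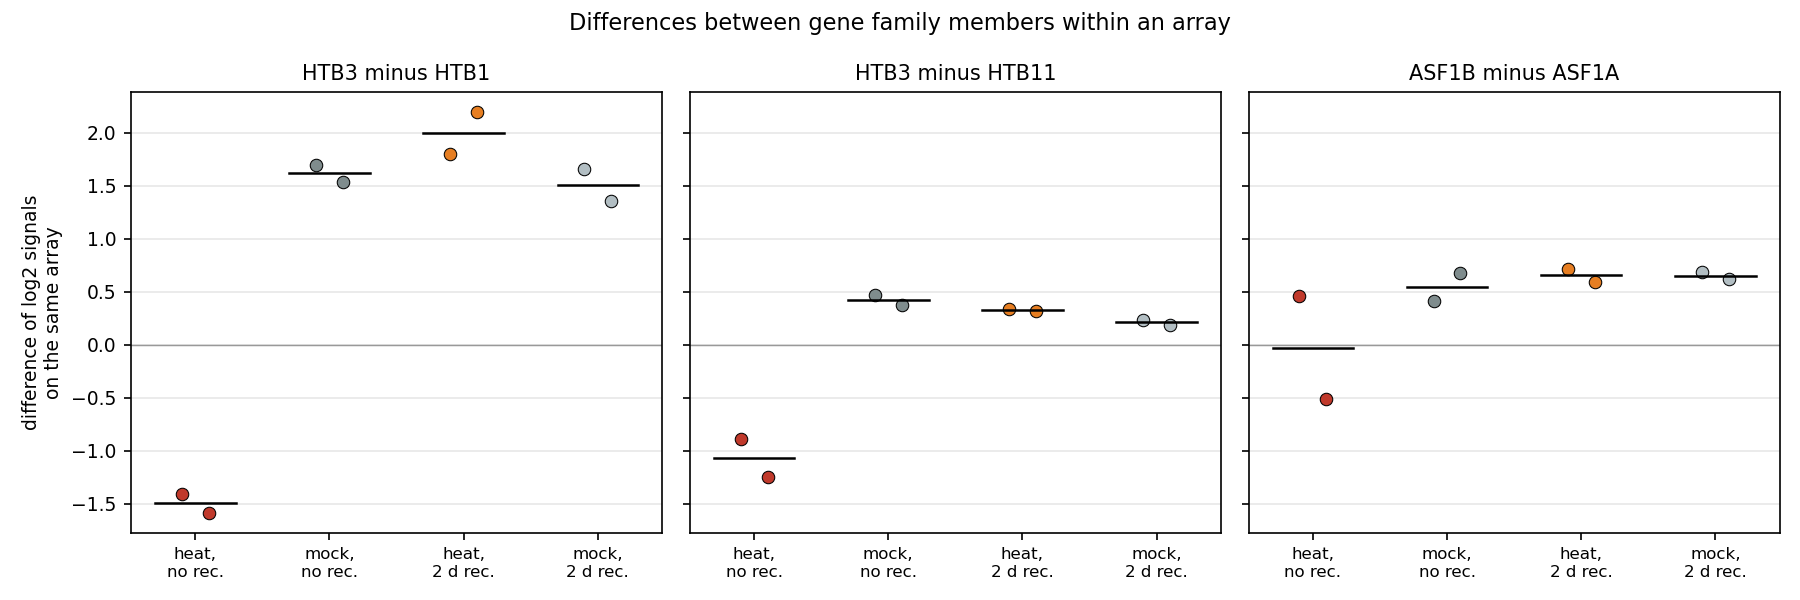
Difference between the log2 signals of 2 genes on the same array, for HTB3 and HTB1, HTB3 and HTB11, and ASF1B and ASF1A; points are arrays, bars the mean of 2, and only shifts between groups are meaningful. Both H2B differences were lower in heat without recovery (shifts of -3.11 and -1.49), whereas ASF1B and ASF1A overlapped.

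After 2 days of recovery HTB3 and HTB11 were back within or near the mock range, and HTB1 stood below it without passing the test. HTB3 read 9.74 and 9.86 in recovered plants, against 9.87 and 9.68 in mock plants of that day. The recovered arrays lay inside the mock range. The difference was 0.02 ± 0.13, with a 95% interval of -0.34 to 0.38 (limma adjusted p = 1.00). As a ratio of recovered to mock plants, this interval ran from 0.793 to 1.303.

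HTB11 read 9.41 and 9.53 in recovered plants, against 9.63 and 9.50 in mock. The groups overlapped, and the difference was -0.09 ± 0.08 (95% interval -0.30 to 0.11, limma adjusted p = 0.743). Both mock recovery arrays stood above both earlier mock arrays, by 0.16 ± 0.08 on average (limma adjusted p = 0.696), an order shown by 15.2% of all probe sets.

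HTB1 read 7.95 and 7.66 in recovered plants, against 8.21 and 8.33 in mock. Both recovered arrays were below all 4 mock arrays of the 2 times. The difference was -0.46 ± 0.11, with a 95% interval of -0.76 to -0.17 and an unadjusted p = 0.0113, and it did not pass the threshold (limma adjusted p = 0.208). In this comparison 17.4% of all probe sets had both heat arrays below both mock arrays, 12.7% had an unadjusted p under 0.05, 6.23% had such a p and were lower, and 0.237% were called in either direction. HTB1 was the 1 gene of the 5 whose recovered and mock arrays did not overlap.

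The ASF1 genes overlapped with mock after recovery. ASF1A read 5.88 and 5.92 in recovered plants, against 5.83 and 6.02 in mock, a difference of -0.02 ± 0.12. ASF1B read 6.60 and 6.51, against 6.51 and 6.63, a difference of -0.02 ± 0.25. Both had a limma adjusted p of 1.00, and the sign of either difference flipped when each array's median was subtracted (0.02 for both). The median over the 5 genes was -0.02, and 0 of them were called in limma, with 1 (HTB1) at an unadjusted p under 0.05.

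For HTB3 and HTB11 the size of the heat effect changed with sampling time. Tested as an interaction, it was higher after recovery by 3.84 ± 0.19 for HTB3 (limma adjusted p = 0.000633) and by 2.24 ± 0.11 for HTB11 (limma adjusted p = 0.000601), where 15.4% of probe sets were called higher and 32.3% in either direction. With only probe sets of at least log2 4 on at least 2 arrays tested, 8256 of 13849 were called in either direction. For HTB1 the interaction was 0.24 ± 0.16 (limma adjusted p = 0.366), and a difference between the 2 times was not shown. It was 0.0998 without heat recovery replicate 1 and 0.386 without replicate 2 (limma adjusted p = 0.644 and 0.0736). The interaction was -0.18 ± 0.17 for ASF1A and 0.40 ± 0.36 for ASF1B (limma adjusted p = 0.556 and 0.553). Leaving out 1 array moved it between -0.322 and -0.0322 for ASF1A and between 0.0564 and 0.734 for ASF1B, with both extremes of each reached without heat no-recovery replicate 1 or 2 and no call gained.

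Within heat-treated plants, the later samples showed the same return. Recovered plants exceeded plants sampled at the end of the stress by 3.797 ± 0.134 for HTB3 and 2.40 ± 0.08 for HTB11 (limma adjusted p = 0.000164 and 0.000122), where 19.1% of probe sets were called higher and 39.9% in either direction. HTB1 differed by 0.31 ± 0.11 (limma adjusted p = 0.101), though its 2 groups did not overlap (both recovered arrays were higher in 28.4% of all probe sets), and without heat recovery replicate 2 the value was 0.45 (limma adjusted p = 0.0259). ASF1A differed by -0.13 ± 0.12 and ASF1B by 0.55 ± 0.25 (limma adjusted p = 0.520 and 0.176). The 2 heat groups overlapped for ASF1A, whereas both recovered arrays were higher for ASF1B. Without heat no-recovery replicate 1, the value of ASF1B was 0.89 (limma adjusted p = 0.0251). Between the mock groups, where 0.0791% of probe sets were called, none of the 5 was (limma adjusted p from 0.696 to 1.00), with changes of -0.04 for HTB3, 0.06 for HTB1, 0.16 for HTB11, 0.05 for ASF1A and 0.16 for ASF1B, and 0 of them had an unadjusted p under 0.05 (8.63% of all probe sets did). These comparisons share arrays with those above.

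By level, HTB3 and HTB11 thus had 1 low group, heat without recovery at 6.002 ± 0.193 and 7.07 ± 0.06 (SD, n = 2). Their other groups lay within 9.78 to 9.82 for HTB3 and 9.40 to 9.57 for HTB11. Neighbours among those 3 groups overlapped for HTB3. For HTB11 the later mock group did not overlap with the earlier one. HTB1 stood at 7.499 ± 0.070 in heat without recovery, 7.81 ± 0.20 in heat after recovery, and 8.21 ± 0.03 and 8.27 ± 0.09 in mock, the mock groups overlapping. Its recovered group passed neither against heat without recovery nor against mock of that day (limma adjusted p = 0.101 and 0.208). A separate middle level of HTB1 was thus not shown. The 4 group means of ASF1A spanned 5.87 to 6.03 and those of ASF1B 6.002 to 6.57, with neighbours in order overlapping or sharing a value.

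The rest of the H2B family gave the 3 genes their context. Of 11 H2B genes listed from general knowledge, 9 had a probe set with 1 gene, the 3 chosen genes included. Of these 9, 5 fell in heat without recovery (background 19.8%) and 1 rose (background 21.2%), with a median of -0.65. Without the 3 chosen genes, 2 of 6 were called lower, 1 higher and 3 in neither direction. The median of those 6 was -0.03, against 0.00 over all probe sets. Only 4 of the 6 reached log2 4 on at least 2 arrays, with changes of -1.38, -0.65, -0.06 and 1.80. AT1G08170 and AT5G02570 did not. Their changes of 0.0 enter both the median and the 3 called in neither direction. Of the 6 outside the 3 described above, AT2G37470 was at 6.64 and 6.78 in heat, against 8.02 and 8.14 in mock, lower by 1.38 ± 0.08 with no overlap (limma adjusted p = 0.000483). HTB2 (AT5G22880) was at 8.15 and 7.86, against 8.54 and 8.77, a change of -0.65 ± 0.17 (limma adjusted p = 0.0382). That call was lost whenever 1 of the 8 arrays was left out (limma adjusted p from 0.0527 to 0.159) and with the 4 arrays alone (0.111).

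One gene of the family went the other way. AT3G09480 was at 6.81 and 6.75 in heat, against 4.82 and 5.15 in mock, a rise of 1.80 ± 0.17 with no overlap (limma adjusted p = 0.00176). HTB4 (AT5G59910) had 11.39 and 11.35 in heat, against 11.49 and 11.36 in mock, a change of -0.06 ± 0.10 (limma adjusted p = 0.865). AT1G08170 was at the floor on all 8 arrays, and AT5G02570 read 2.89 on 7 arrays and 3.62 on heat recovery replicate 1, so their changes could not be read. The annotation used here gives the loci AT2G37470, AT3G09480, AT1G08170 and AT5G02570 no gene symbol, and their place in the H2B list comes from the list.

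After recovery none of the 9 was called in limma (background 0.237%), with 3 at an unadjusted p under 0.05 (background 12.7%, and 6.23% lower). These were HTB1, HTB2 and HTB4, each lower, and HTB1, HTB2, HTB4 and AT2G37470 had both recovered arrays below both mock arrays (background 17.4%). HTB2 stood at 8.49 and 8.23, against 9.08 and 8.87 in mock, a difference of -0.61 ± 0.17 (limma adjusted p = 0.252). HTB4 stood at 11.45 and 11.22, against 11.78 and 11.65, a difference of -0.38 ± 0.10 (limma adjusted p = 0.247). For HTB4 the mock plants of that day had both arrays above those of 2 days earlier, and the recovered plants overlapped with the earlier mock plants. AT2G37470 differed by -0.18 ± 0.08 and AT3G09480 by 0.45 ± 0.17 (limma adjusted p = 0.497 and 0.400). Each of these 9 probe sets has an identifier ending in a plain "_at", without the mark the manufacturer puts on sets shared by several transcripts. H2B coding sequences are much alike, and which H2B transcripts each set can bind was not analysed here.

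**Figure D4:**
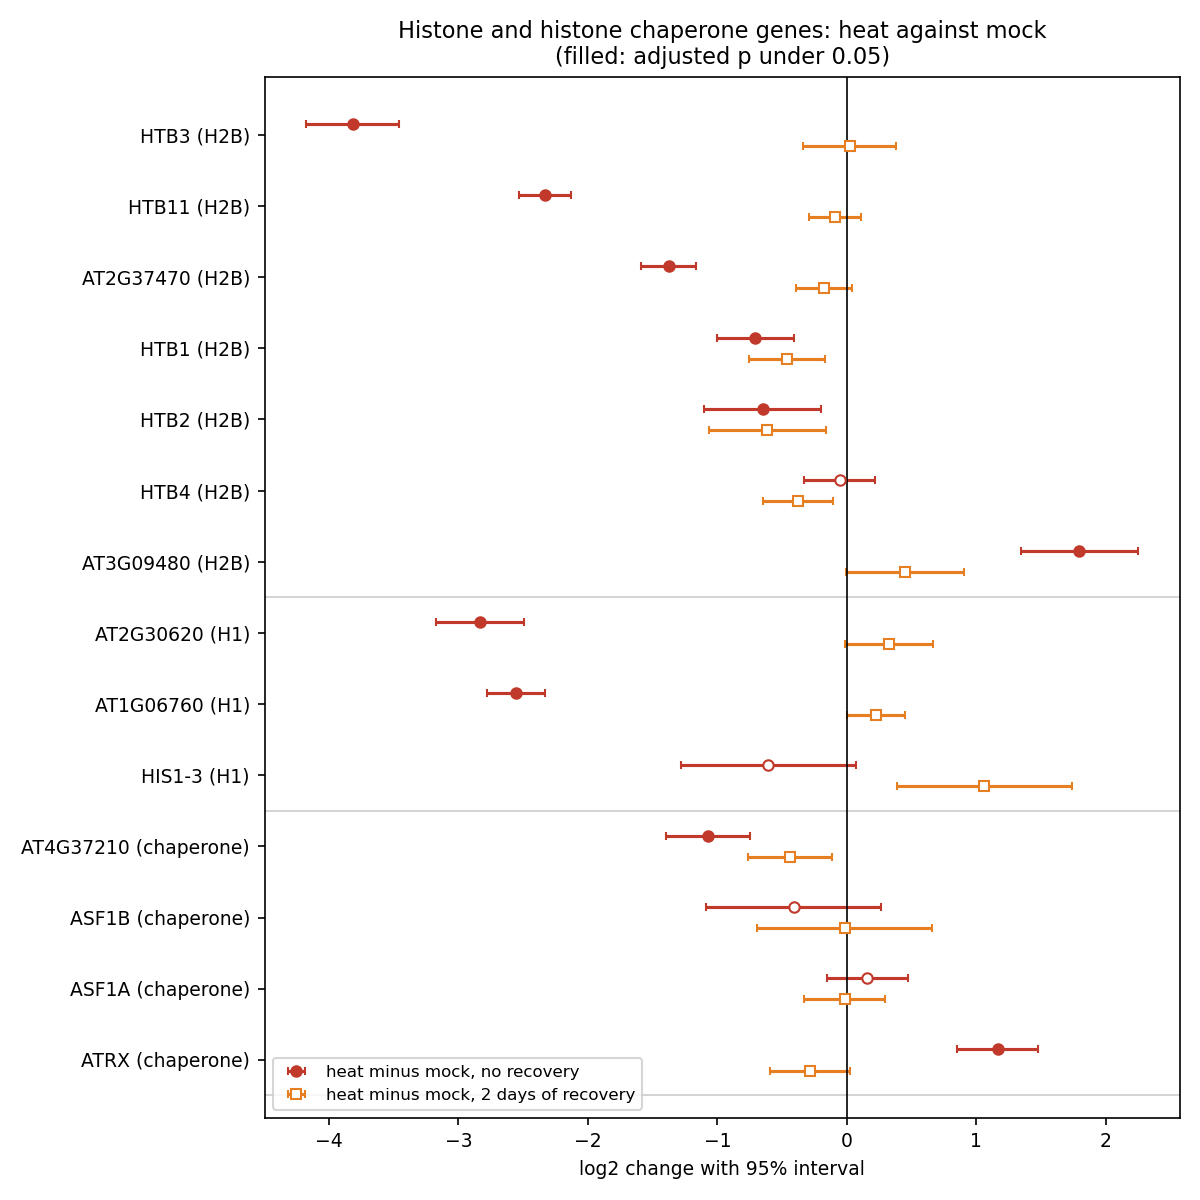
Log2 change between heat and mock, with 95% intervals, for the 7 H2B genes above log2 4, 3 linker histones and 4 chaperones, without recovery (circles) and after 2 days of recovery (squares); filled symbols have an adjusted p under 0.05. Changes without recovery ranged from -3.82 for HTB3 to 1.80 for AT3G09480, and no symbol after recovery is filled.

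Linker histones, which bind the DNA between nucleosomes, fell by amounts between those of HTB11 and HTB3 in 2 cases. Of 3 measured, these 2 fell in heat without recovery (background 19.8%) and 0 rose (background 21.2%), with a median of -2.56. AT2G30620 was at 8.08 and 8.13 in heat, against 10.78 and 11.09 in mock (-2.83 ± 0.13), and AT1G06760 at 7.05 and 7.16, against 9.56 and 9.76 (-2.56 ± 0.08). Their limma adjusted p was 0.000258 and 0.000131. HIS1-3, a linker histone variant known to be induced by drought, had a change of -0.61 ± 0.25 (limma adjusted p = 0.140), which was called lower once weak probe sets were dropped, those that reached log2 4 on fewer than 2 arrays (limma adjusted p = 0.0375). After recovery all 3 had both heat arrays above both mock arrays (background 16.9%), and none was called in limma, with 1, HIS1-3, at an unadjusted p under 0.05 (background 12.7%). HIS1-3 read 9.65 and 8.95, against 8.28 and 8.20 in mock, a difference of 1.06 ± 0.25 (limma adjusted p = 0.207, and 0.0445 over the filtered probe sets).

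Beside the ASF1 pair, 2 of the other listed histone chaperones were measured, 4 of 21 in all, and they moved in opposite directions. ATRX, which acts with the variant H3.3, rose in heat to 7.64 and 7.49, against 6.30 and 6.495 in mock, by 1.17 ± 0.12 (limma adjusted p = 0.00206). AT4G37210 fell to 5.98 and 5.95, against 6.91 and 7.16, a change of -1.08 ± 0.12 (limma adjusted p = 0.00293). After recovery neither was called (limma adjusted p = 0.441 and 0.252). The listed subunits of CAF-1 and HIRA, the partners of ASF1, lacked a probe set assigned to 1 gene and were not analysed here.

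H2B ubiquitination is a mark set on H2B during transcription. Of 9 genes listed under this mark, whether they set or remove it, 4 were measured. Among these, 1 rose (AT3G27100, by 0.45 ± 0.06, limma adjusted p = 0.00453) and none fell in heat without recovery (background 21.2% higher and 19.8% lower). The median was 0.25. UBP26 and UBP22, proteases that remove ubiquitin from H2B, had differences of 0.63 ± 0.18 and -0.40 ± 0.19 (limma adjusted p = 0.0543 and 0.190). UBP26 was called higher under several alternatives, among them the filtered probe sets (limma adjusted p = 0.0129). After recovery none of the 4 was called in limma, with AT3G27100 at an unadjusted p under 0.05 (background 12.7%).

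None of the listed H2A and H4 genes and none of the listed E2F and other regulators of histone genes had a probe set with 1 gene, and the 4 H3 genes measured read 2.18 to 2.72 on every array. Genes of DNA replication and mitosis were few: of 2 S-phase genes, ICU2, the catalytic subunit of DNA polymerase alpha, rose by 1.35 ± 0.36 (limma adjusted p = 0.0428) and MCM7 (PRL), of the replicative helicase, had a difference of 0.27 ± 0.18 (limma adjusted p = 0.353). For PRL the value was 0.534 and called without heat no-recovery replicate 2 (limma adjusted p = 0.00949) and 0.0045 without replicate 1 (limma adjusted p = 1.00). ICU2 missed the threshold without either mock no-recovery array, without heat no-recovery replicate 1 and without either mock recovery array (limma adjusted p up to 0.160), and with the 4 arrays alone (0.100). None of the 3 Aurora kinases of mitosis passed. AUR1 read 3.91 and 3.18 in heat, against 5.53 and 5.27 in mock, without overlap (-1.85 ± 0.59, limma adjusted p = 0.0691, and 0.0076 over the filtered probe sets). AUR2 and AUR3 had differences of -0.01 and 0.06, whose signs flipped with array medians subtracted (AUR2) or quantile normalization repeated (AUR3).

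Some of the listed tissue markers also fell in heat, and others were at the floor. In heat without recovery all 3 photosynthesis genes measured of 9 listed fell (background 19.8%). The falls were 1.68 (PSAE-1), 1.76 (PSBY) and 3.64 (LHCB4.2) on the log2 scale (limma adjusted p = 0.000156, 0.000135 and 0.000119). Their mean signal was 11.25 and 11.19 on the heat arrays, against 13.64 and 13.52 on the mock arrays, and 13.51 to 13.61 on all arrays of the recovery time. The root and seedling gene PYK10 fell by 2.71 (SE 0.27), while the root genes EXPA7 and EXPA18 and both pollen markers were at the floor throughout. The guard-cell regulator FMA changed by -0.63 ± 0.14 (limma adjusted p = 0.0262), a call lost when any of 5 arrays was left out (limma adjusted p up to 0.115) and with the 4 arrays alone (0.0874). None of these was called after recovery, and no listed meristem marker had a probe set with 1 gene. A control probe set for 25S ribosomal RNA read 13.41 and 13.56 in heat without recovery, against 11.73 and 11.43 in mock. The GAPDH control at the 3' end exceeded that at the 5' end by 2.95 ± 0.22 in heat and 3.19 ± 0.04 in mock (SD, n = 2). The part of these in the H2B changes was not tested.

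Genes with the most similar profile were named by Pearson's r over the 8 arrays, among genes whose range was not much narrower (at least 0.5 times that of the gene in question). For HTB3 they were AT4G16870, AT1G52200 and AT1G71970 (r = 0.998 to 0.999, of 1751 genes compared), and for HTB11 AT3G19850, AT2G46220 and the chlorophyll synthesis enzyme PORB (r = 0.998 to 0.999, of 3576). Profiles of this shape were common, since 151 and 130 genes had r of at least 0.99, and in them the 2 heat arrays without recovery stood apart from the other 6. HTB1 was nearest to AT5G16240 (r = 0.988), AT1G68400 and AT1G64370. Their differences from mock were -1.298, -2.06 and -0.97 without recovery and -0.79, -1.04 and -0.55 after it. ASF1A was nearest to AT5G08360 (r = 0.963) and ASF1B to AT3G29375 (r = 0.976), in ranges under 1 log2 unit. Within the families r was 0.996 between HTB3 and HTB11, 0.79 between either of them and HTB1, and 0.917 between HTB1 and HTB2. Between ASF1A and ASF1B it was -0.70, a value that rested on 1 array. Heat no-recovery replicate 2 had both the highest ASF1A signal (6.17) and the lowest ASF1B signal (5.66), so opposed profiles were not shown. All points share the same 8 arrays and their normalization, and no p is given for these descriptions.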

How the data were processed

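Each array came with 1 deposited value for each probe set. Per the submitters' processing notes the authors used GCRMA, with no version stated there, a method that corrects background from probe base content, equalizes arrays by quantiles and summarizes on the log2 scale. The deposited values had no decimal point (0 of 182480), and it was put back behind the leading digit, or behind the leading pair in the 10444 values that began with 10 to 15. The log2 scale is thus a reading of the deposited values. Values were already normalized between arrays, so a shift shared by most transcripts cannot be seen. No read depth applies to arrays, and 2 per group limit the precision. No genome build is given in the sources used here, so no coordinates are printed.

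After 64 control probe sets were left out, 22746 were tested. GEO's platform annotation gave 1 gene to 13513, several to 503 and none to 8730, and 13436 matched a RefSeq gene of TAIR10.1. All 8 arrays entered 1 linear model, with 1 mean for each group, in limma 3.58.1 (R 4.3.3), with moderated variances, two-sided tests and Benjamini-Hochberg adjustment over all probe sets, and a threshold of 0.05. Errors of changes are SE from that model, and those of levels are SD. Differences between genes within an array were tested by exact permutation (scipy 1.17.1). The procedure was tested on simulated data.

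Genes named are the 5 chosen ones, measured genes of hand-written lists (histones, chaperones, H2B ubiquitination, replication, mitosis, tissue markers) and the 3 nearest profiles to each. The genes, lists and tests were chosen with earlier results of these data known. Nothing in the labels says that replicate numbers pair samples across groups. The alternatives were a filter on low values, a floor at log2 4, the 4 compared arrays alone, other scalings, other moderation, a replicate block, probe sets with 1 gene alone, and each array left out.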

Additional observations from a re-analysis of the deposited data

Results flagged for a closer look

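Both results here stand out because the heat effect differed between the 2 sampling times in a test of the difference itself. For HTB3 the effect after recovery minus that without recovery was 3.84 on the log2 scale, and for HTB11 it was 2.24 (limma adjusted p = 0.000633 and 0.000601). Both were positive in each of the 15 alternatives run, with ranges of 3.71 to 3.98 for HTB3 and 2.17 to 2.304 for HTB11. Several of these alternatives left the estimate as it was and could not turn its sign. Groups of 2 arrays were too small to look for single outlying samples.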

How the results depend on the processing

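Over the alternatives, 381 of 395 values of the 5 genes kept direction and side of the threshold, 3 gained a call, 0 lost one and 11 changed sign. Of 794 values of the other listed genes, 738 were kept, 23 lost and 18 gained a call, and 15 changed sign. The causes were not tested. Many of these values could not change direction. The filter, the 4 arrays alone, other moderation, the replicate block and 1-gene probe sets left each estimate as it was. So did the floor for the 5 genes, and leaving out an array of a group not compared. In these cases only the p could move. HTB1 stayed lower in heat without recovery in all 16 alternatives (limma adjusted p from 0.00202 to 0.0477), and HTB3 at -3.95 to -3.68. Called probe sets numbered 4961 over probe sets with 1 gene alone, against 9334, without recovery, 3828 against 7350 for the interaction and 4838 against 9081 between the heat groups, as fewer were tested. After recovery they numbered 54, but 582 with the filter on low values, 201 with array medians subtracted, 20 with 1-gene probe sets, 18 with a floor at log2 4, 1 with the 4 arrays alone, and 15 to 431 leaving out 1 array. Between the mock groups they numbered 18, but 9 with 1-gene probe sets, 8 with the floor, 0 in limma with the 4 arrays alone (2162 at an unadjusted p under 0.05) and 4 to 361 leaving out 1 array. The replicate block gave 18 after recovery and 9 between mock groups, ended the calls of HTB2 (limma adjusted p = 0.0553) and ICU2 (0.0662), and changed no call of the 5 genes. The difference between replicates 1 and 2 was correlated over probe sets between the groups compared. With r from -0.13 to 0.15, the replicate numbers were not taken to pair arrays.

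Signs turned for small differences. Those of ASF1B without recovery, and of HTB1 and ASF1B between the heat groups, held, and only their size moved. With array medians subtracted the recovery differences were 0.0192 for ASF1A, 0.0203 for ASF1B and 0.0027 for PSAE-1, and AUR2 without recovery was 0.0106. With quantile normalization repeated, HTB4 was 0.0051 and AUR3 -0.036 without recovery. Leaving out 1 array, recovery differences ran from -0.0673 to 0.114 for HTB3, -0.113 to 0.0769 for ASF1A, -0.0754 to 0.0414 for ASF1B, -0.358 to 0.0301 for HTR12, -0.194 to 0.333 for UBP26, -0.0164 to 0.841 for AT5G58575, -1.25 to 0.0731 for AUR1, -0.962 to 0.102 for AUR2, -0.104 to 0.0348 for PSAE-1 and -0.0356 to 0.355 for PYK10. Without recovery they ran from -0.118 to 0.0075 for HTB4, -0.174 to 0.291 for AT5G58575, -0.189 to 0.161 for AUR2 and -0.751 to -0.0734 for ASF1B. Between the heat groups they ran from -0.272 to 0.0184 for ASF1A, 0.163 to 0.449 for HTB1 and 0.214 to 0.892 for ASF1B, and between the mock groups from -0.144 to 0.0544 for HTB3 and -0.0444 to 0.146 for ASF1A. Where 1 array of a group was left, it was assumed to vary like the other groups. The 4-array fit gives no interaction, and each of the 5 genes has 1 probe set, so no choice among probe sets was run. Signals near the floor limit what can be read for H3 genes, AUR3, AT1G08170 and AT5G02570.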

Other observations

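The genes next to the 5 on the chromosome were looked at, 2 coding genes on either side in RefSeq's order. Of these neighbours 9 had a probe set with 1 gene, and none of the 9 was called at either time, where 41.0% of all probe sets were called without recovery and 0.237% after it. Of the 9, 5 had a change of 0.0 without recovery, so the count says little. Beside HTB3, AT2G28710 had differences of -0.31 without recovery and 0.12 after it (limma adjusted p = 0.465 and 1.00), and beside HTB11, AT3G46020 had differences of -0.35 and 0.06 (limma adjusted p = 0.349 and 1.00). The H4 gene HIS4, 2 coding genes from HTB3, had no probe set with 1 gene.

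Among the linker histones, 2 of 3 had both later mock arrays above both earlier ones, an order shown by 15.2% of all probe sets. HIS1-3 read 8.28 and 8.20 in the later mock plants, against 6.9999 and 7.25 in mock plants 2 days earlier, a change of 1.11 ± 0.25 that did not pass the test (limma adjusted p = 0.338). AT1G06760 had a change of 0.31 ± 0.08 and AT2G30620 of -0.13 ± 0.13 (limma adjusted p = 0.405 and 0.929), and differences between these genes were not tested.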
